A study of Mus musculus and synthetic construct with 32 samples.

Results

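The synaptonemal complex and chromosome axis genes are 10 genes chosen by name: Sycp1, Syce1, Syce2, Syce3, Tex12, 4930447C04Rik (also named Six6os1, and called so from here on), Sycp2, Sycp3, Hormad1 and Hormad2. They were taken from 22976 gene names with sense exon or sense intron rows in 4 tables, and all 10 were present in each. The series compared gonads of mice that lack Ythdc2, the gene of a helicase whose YTH domain binds N6-methyladenosine (m6A), with control gonads, all on the C57BL/6J background. Testes at postnatal day 12 (P12) gave 3 YTHDC2 -/- and 3 YTHDC2 +/- libraries, and testes at P8 gave 2 YTHDC2 -/-, 1 YTHDC2 +/- and 1 YTHDC2 +/+ library. Newborn ovaries (P0) gave 2 YTHDC2 -/- and 2 YTHDC2 +/- libraries. The m6A folds used here come from 1 immunoprecipitate and 1 input of YTHDC2 +/+ testis at P8. The m6A mean counts, which set the floor and the count range used, also cover 2 immunoprecipitates and 2 inputs each of YTHDC2 +/- testis at P12 and YTHDC2 +/+ testis at P20. At P12 and P0 every control carried a mutant allele. The knockout alleles were made with Cas9 and lack exon 7 or carry stop codons in it, and the labels do not tell which allele a library carried.

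During prophase of the first meiotic division, each chromosome folds into loops along a protein axis, and the axes of homologous chromosomes are then zipped together by the synaptonemal complex. SYCP2 and SYCP3 build the axial, later lateral, elements. HORMAD1 and HORMAD2 sit on axes that are not yet synapsed and mark them for checkpoint control. SYCP1 forms the transverse filaments that span between the axes, and SYCE1, SYCE2, SYCE3, SIX6OS1 and TEX12 form the central element that locks the filaments together. In the mouse testis these genes are read in spermatocytes of the first meiotic wave, and in the female they are read in fetal oocytes, which enter prophase before birth.

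The promoters of the members are shown because 7 of the 10 genes were called lower in the P12 testis, and because members differ in the letters they hold. RefSeq promoter windows (GRCm38.p6, 250 bases before to 50 after the start) matched all 10 members, with 13 windows, since Syce2, Syce3 and Hormad1 have more than 1 start. The E-box CACGTG, letters bound by helix-loop-helix factors such as MAX and MGA, was in a window of 6 of the 10 members (Sycp1, Syce2, Tex12, Six6os1, Sycp3 and Hormad1) and of 8.09% of 27025 genes. The E2F letters GCGGGAA were in 4 (Syce2, Tex12, Sycp3 and Hormad1) against 5.29% of genes. Each of these 4 genes held both motifs in 1 window, as did 0.514% of genes. Of the members with an E-box, Tex12, Six6os1, Sycp3 and Hormad1 were called lower at P12, and Sycp1 and Syce2 were not. Of those with neither motif, Syce3, Sycp2 and Hormad2 were called lower and Syce1 was not. A link between the letters and the P12 calls was not tested. The stretches below give the 250 bases before the start, 5′ to 3′ on the strand of the gene, with E-box and E2F letters in capitals. The RefSeq spans of Six6os1 (to base 72917957) and Sycp2 (to base 178407776) reach into their stretches, so part of each stretch lies within the gene. Sycp2, whose exons fell most at P12, is shown as a member whose window holds neither.
Sycp3, chr10:88459337-88459586, plus strand: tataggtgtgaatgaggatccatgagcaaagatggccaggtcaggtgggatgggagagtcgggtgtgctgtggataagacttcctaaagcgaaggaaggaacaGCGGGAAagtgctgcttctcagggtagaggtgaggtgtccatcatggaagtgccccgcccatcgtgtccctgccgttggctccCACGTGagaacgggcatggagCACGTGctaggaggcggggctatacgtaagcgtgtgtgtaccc
Hormad1, first start, chr3:95559427-95559676, plus strand: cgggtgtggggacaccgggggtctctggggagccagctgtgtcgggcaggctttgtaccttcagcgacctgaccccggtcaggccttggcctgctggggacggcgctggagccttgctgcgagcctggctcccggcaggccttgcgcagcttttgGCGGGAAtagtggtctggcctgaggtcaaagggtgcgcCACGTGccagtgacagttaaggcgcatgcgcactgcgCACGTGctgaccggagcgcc
Tex12, chr9:50561269-50561518, minus strand: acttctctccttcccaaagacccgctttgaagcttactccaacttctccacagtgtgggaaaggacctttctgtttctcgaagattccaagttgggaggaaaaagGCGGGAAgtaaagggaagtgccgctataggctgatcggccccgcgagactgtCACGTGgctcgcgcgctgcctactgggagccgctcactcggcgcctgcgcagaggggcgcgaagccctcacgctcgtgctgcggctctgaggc
Sycp1, chr3:102936101-102936350, minus strand: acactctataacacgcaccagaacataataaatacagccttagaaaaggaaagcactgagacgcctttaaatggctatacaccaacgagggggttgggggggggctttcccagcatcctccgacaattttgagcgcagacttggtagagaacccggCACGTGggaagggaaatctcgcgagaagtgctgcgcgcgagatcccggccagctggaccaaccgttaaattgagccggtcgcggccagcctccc
Six6os1, chr12:72917766-72918015, minus strand: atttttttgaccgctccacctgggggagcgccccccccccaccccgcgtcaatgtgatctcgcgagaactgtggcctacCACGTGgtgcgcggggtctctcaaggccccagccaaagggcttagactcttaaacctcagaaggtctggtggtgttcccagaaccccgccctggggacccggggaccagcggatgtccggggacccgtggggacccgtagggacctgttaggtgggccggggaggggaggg
Sycp2, chr2:178407659-178407908, minus strand: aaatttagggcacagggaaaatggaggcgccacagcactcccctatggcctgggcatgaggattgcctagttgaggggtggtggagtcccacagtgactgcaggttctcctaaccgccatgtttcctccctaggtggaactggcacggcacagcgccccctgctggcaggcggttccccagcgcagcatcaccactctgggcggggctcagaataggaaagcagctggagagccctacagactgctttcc

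Sycp3 and Hormad1 each held a pair of E-boxes close to the start, with first bases at -64 and -43 in Sycp3 and at -57 and -20 in Hormad1. Their E2F letters lay upstream of both, at -147 and -95. In Tex12 the order was the same, with the E2F letters at -145 and the E-box at -93. In Syce2 the motifs were in the window of the second start only, and there the E2F letters, at -34, lay downstream of the E-box at -88. All motifs were searched on both strands, and 0 of these matches shared bases with another searched motif. Of the others, MYB letters AACGG were in 4 members and 19.6% of genes, AACTG in 6 and 48.2%, the GC box GGGCGG in 6 and 38.2%, the TATA box TATAAA in 1 and 15.7%, and the CRE TGACGTCA in 0 and 2.03%. The median GC content was 61.7% over the 13 member windows and 52.7% over all 32851 windows, and its part in the difference was not tested. A match is a run of letters and does not show binding.

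**Figure D1:**
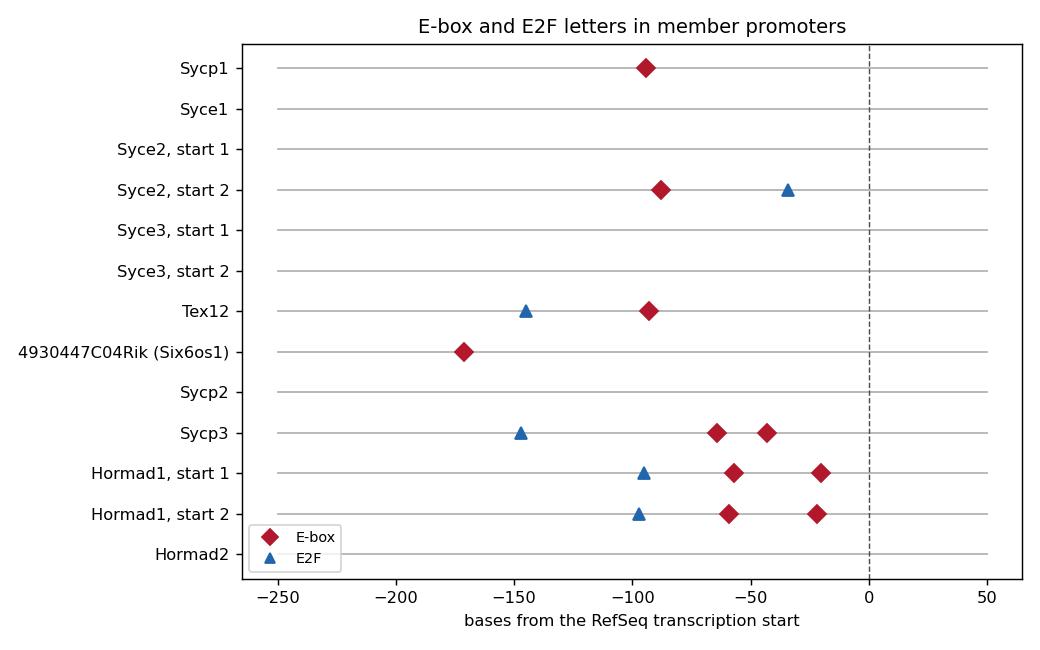
Positions of E-box (CACGTG, red diamonds) and E2F (GCGGGAA, blue triangles) letters in the promoter windows of the 10 members, 1 line per RefSeq start, against distance in bases from the start. Sycp3, Tex12 and Hormad1 hold the E2F letters upstream of their E-boxes, and Syce1, Syce3, Sycp2 and Hormad2 hold neither motif.

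The mouse files hold the authors' own comparisons and no value per library, so each member is given by its mean normalized count over all libraries of a table, its log2 fold change and its adjusted p, and no spread between replicates can be shown. A feature was tested here if its mean count was at least 10 and it had an adjusted p. All 10 members passed this in exons of every table, and the number with tested introns was 10 at both testis ages, 8 in ovary and 9 for m6A. Members counted as lower or higher had an adjusted p under 0.05 as the authors gave it. Which features each adjustment covered is not stated. The highest adjusted p in ovary differed between member exons (0.99993) and member introns (0.999996). The Ythdc2 exons themselves had a log2 fold change of -1.29 at P12 per the authors' deposited table, which passed (adjusted p = 9.87e-25), -0.43 in ovary and -0.50 at P8 against the wild type, which did not pass (adjusted p = 0.584 and 1). At P8 the fold against the heterozygote was -0.24 per the authors' deposited table and did not pass either (adjusted p = 1). A count over the whole gene does not check a lesion in exon 7.

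In the knockout testis at P12 most genes of the complex and the axis were lower. All 10 members had exon folds below 0, and 7 passed: the axial genes Sycp2 and Sycp3, both HORMA domain genes, and the central element genes Syce3, Tex12 and Six6os1. Of all 15558 tested exons 0.784% were called lower at P12. The median log2 fold of the members was -0.54, against 0.01 for all tested exons, and 0 members were higher (0.0964% of all tested exons were). The transverse filament gene Sycp1 and the central element genes Syce1 and Syce2 did not pass.

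The axial and lateral element genes had the lowest folds. Sycp2, at a mean normalized count of 2630, had a log2 fold of -0.88 per the authors' deposited table (adjusted p = 5.23e-07), which converts to 54.4% of the heterozygous level. Percentages of a heterozygous or input level, here and below, are converted from the folds and were not measured. Sycp3, at a mean count of 1240, fell by 0.66 per the authors' deposited table (adjusted p = 0.00407), to 63.3%. These 2 were the members that also passed at an adjusted p under 0.01, where 0.546% of all tested exons were called lower, and 9 passed under 0.1, where 1.04% were. SYCP2 carries SYCP3 onto the axis, and their genes lie on chromosomes 2 and 10.

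The HORMA domain genes fell by nearly the same amount. Hormad1 (mean count 712) stood at -0.56 and Hormad2 (mean count 200.4) at -0.57 per the authors' deposited table (adjusted p = 0.0257 and 0.0120). This is 67.9% and 67.5% of the heterozygous level. Whether these folds differ from those of Sycp2 and Sycp3 cannot be tested without values per library.

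The central element genes lay on both sides of the threshold. Syce3 (mean count 322) was at -0.55, Tex12 (273) at -0.54 and Six6os1 (729.9) at -0.50 per the authors' deposited table (adjusted p = 0.0353, 0.0326 and 0.0496). Six6os1 lay just inside the threshold. Just outside it were Syce2 (mean count 1466) at -0.42 and Sycp1 (mean count 3803) at -0.46 per the authors' deposited table, with an adjusted p of 0.0685 and 0.0774. Sycp1, whose product ties the central element to the axes, had the highest mean count of the 10 and was not called. Syce1 was the exception, at -0.26 per the authors' deposited table (adjusted p = 0.613), although 4.86% of all tested exons had a lower fold. For the other 9 members between 0.129% and 1.15% of tested exons lay lower.

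**Figure D2:**
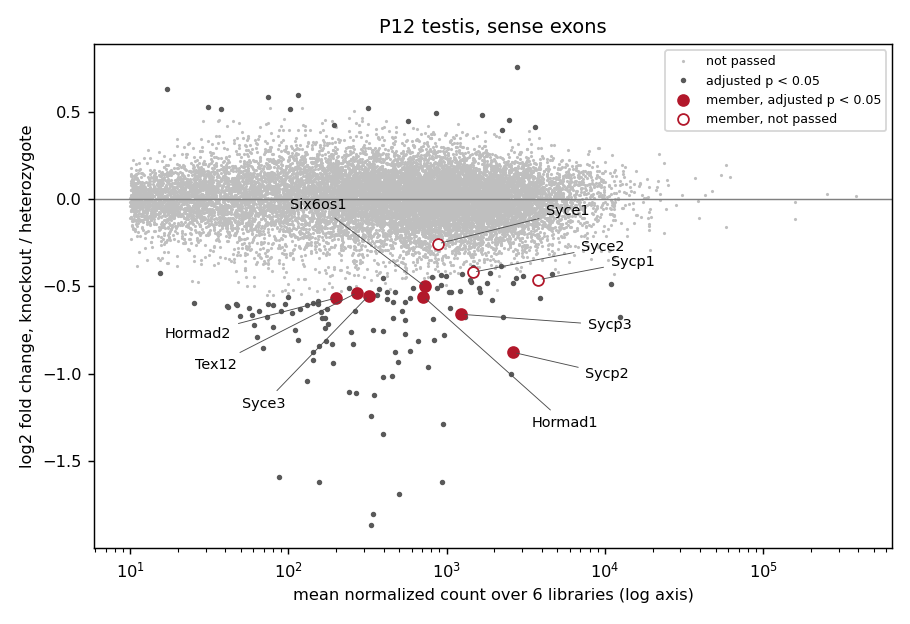
Log2 fold change of knockout over heterozygote (vertical axis) against the mean normalized count over 6 libraries (horizontal log axis) for all tested sense exons of the P12 testis, with members in red, filled where they passed. All 10 members lie below 0, between -0.88 for Sycp2 and -0.26 for Syce1.

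Intron counts were compared in the same libraries. Reads over introns come mainly from RNA that is not yet spliced. All 10 intron folds were below 0 at P12, with a median of -0.50 against 0.01 for all tested introns, and 4 passed, where 0.93% of 13874 tested introns were called lower and 0.0937% higher. Of the 10 introns 2, those of Sycp2 and Hormad2, passed under 0.01 (0.577% of all) and 5 under 0.1 (1.2% of all). Sycp2 introns (mean count 2324) fell by 0.80 and Hormad2 introns (797) by 0.74 per the authors' deposited table (adjusted p = 0.000169 and 0.000183). Hormad1 introns fell by 0.65 and Syce3 introns, with a mean count of 17.4, stood at -0.68 per the authors' deposited table (adjusted p = 0.0136 and 0.0208).

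Of the members called lower in exons, Sycp3, Tex12 and Six6os1 were not called in introns. Sycp3 introns stood at -0.53 and Tex12 introns at -0.46 per the authors' deposited table (adjusted p = 0.210 and 0.412), close to their exon folds. Six6os1 introns were at -0.17 per the authors' deposited table (adjusted p = 0.980), although their mean count of 1455 was higher than that of the exons. The exon fold minus the intron fold had a median of -0.04 over the 10 members, with a range from -0.33 for Six6os1 to 0.17 for Hormad2, and -0.01 over 13312 genes. Exons and introns come from the same libraries, so this difference carries no test. In these bulk samples, fewer cells of a type and less RNA per cell cannot be told apart.

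**Figure D3:**
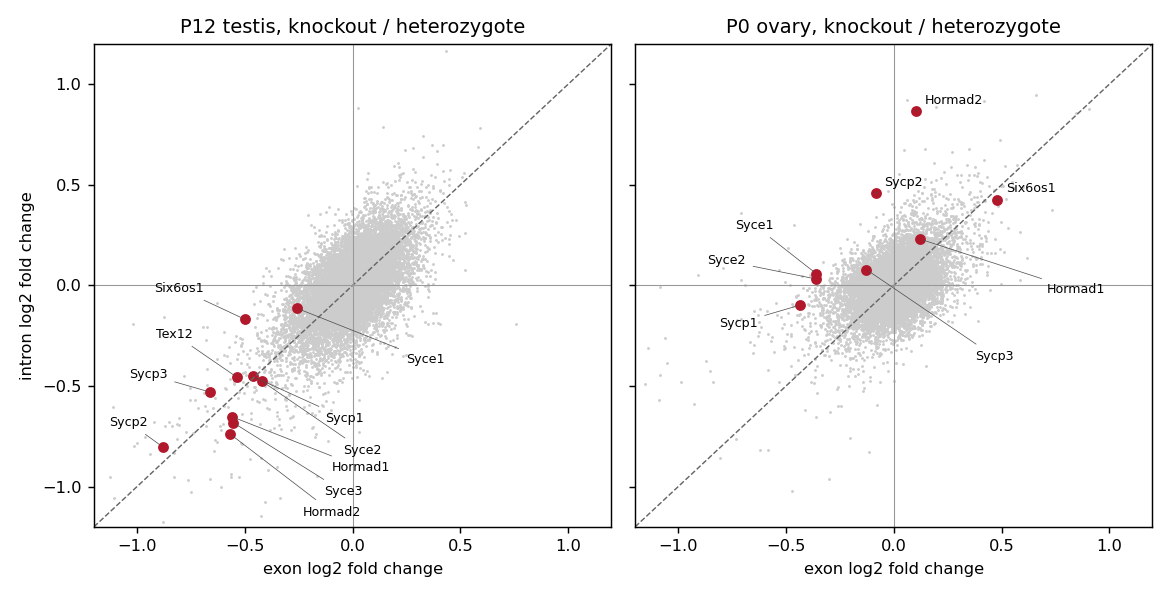
Intron log2 fold change against exon log2 fold change, knockout over heterozygote, for P12 testis and P0 ovary, with members in red, all genes tested in both features in grey and the dashed line where both are equal. At P12 the members lie below 0 on both axes along the line, while in ovary 7 of 8 lie above the line.

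At P8 no member was called against either control, in exons or introns. With the single wild-type library as control, exon folds ran from -0.23 for Hormad1 to 0.03 for Sycp3 per the authors' deposited table, with a median of -0.06 against 0.00 for all tested exons, and 8 of 10 were below 0. With the single heterozygous library they ran from -0.16 for Sycp2 to 0.03 for Hormad2 per the authors' deposited table, with 9 below 0. Of all tested exons 0.00641% were called lower and 0.0385% higher with the wild type as control, and 0.0513% lower and 0.00641% higher with the heterozygote. Of all tested introns 0.00706% were called in each direction with the wild type, and 0.0212% lower and 0.0% higher with the heterozygote. Every member had an adjusted p of 1 per the authors' deposited table, which per the submitters' notes rests on DESeq2 and holds no unadjusted p. Both comparisons share the 2 knockout libraries.

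Sycp2 and Hormad1 had the lowest exon folds of the members in both P8 comparisons. Sycp2 exons were at -0.21 with the wild type as control and -0.16 with the heterozygote per the authors' deposited table. Hormad1 exons were at -0.23 and -0.13 per the authors' deposited table. Sycp2 introns were at -0.29 with the wild type and -0.27 with the heterozygote per the authors' deposited table, the lowest of the 10. The 2 control libraries also differed from each other, with member exon folds from -0.09 (Hormad1) to 0.09 (Sycp3) for heterozygote over wild type per the authors' deposited table. The heterozygous library had higher spermatid transcripts, with exons of 6 of 6 tested spermatid markers above 0 against the wild type and a median of 0.40. In knockout over heterozygote all 6 were below 0, with a median of -0.57. Introns of 5 Leydig cell markers also set it apart, with a median of 0.41 against the wild type and -0.57 in knockout over heterozygote. Exons of 5 Leydig cell markers did not follow the introns against the wild type, with 5 below 0 and a median of -0.06. In knockout over heterozygote 4 of these exons were below 0 and 1 above, with a median of -0.10. The part of these markers in the member values was not tested.

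**Figure D4:**
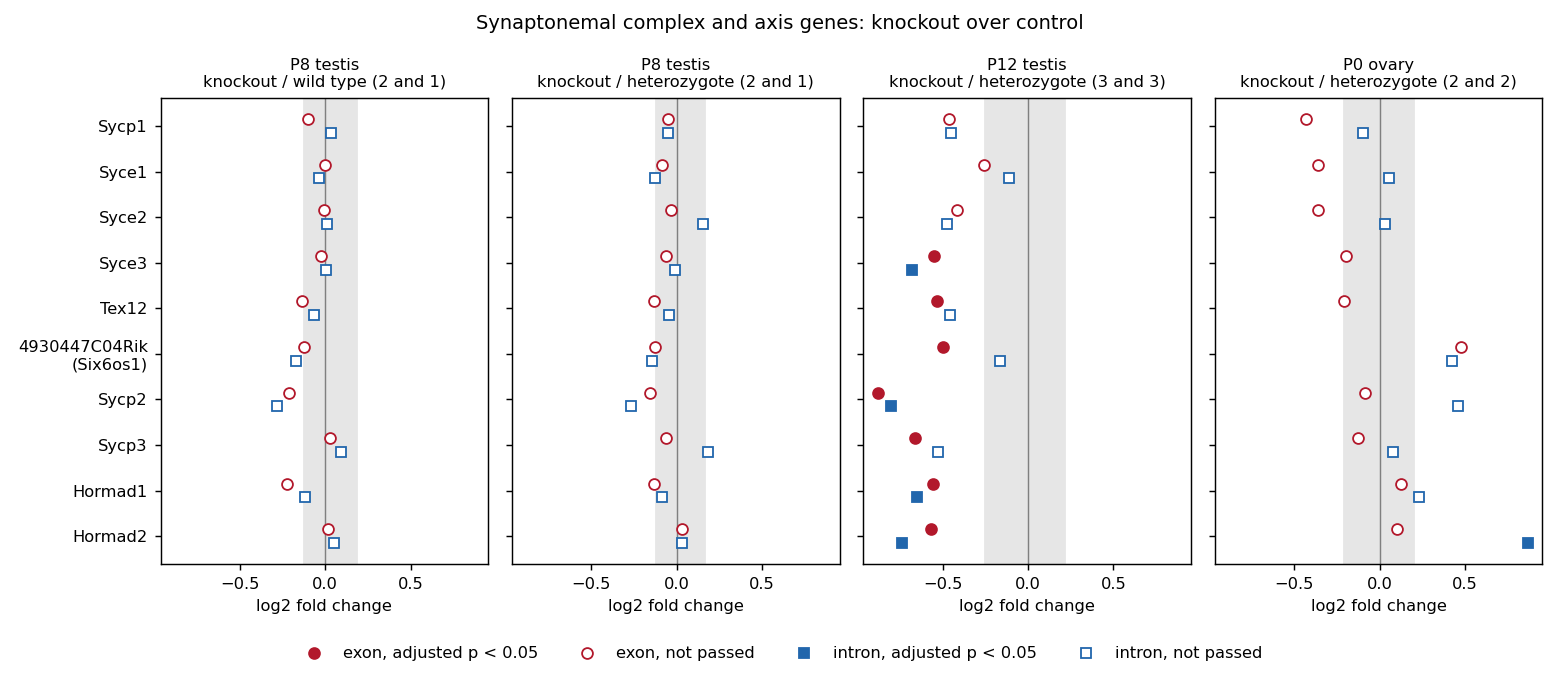
Log2 fold change of each member (rows) in 4 comparisons of knockout over control, with numbers of libraries in brackets. Red circles are exons, blue squares introns, filled where the adjusted p was under 0.05, and the grey band spans the 5th to 95th percentile of all tested exons; introns with a mean count under 10 are not drawn. Filled exon circles appear at P12 only, for 7 members, and the filled intron square in ovary is Hormad2.

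In the newborn ovary 0 members were called in exons, where 0.445% of 14606 tested exons were called lower and 0.103% higher. The unadjusted p is not per the authors' deposited table. The folds spread in both directions: 7 of 10 were below 0, with a median of -0.16 against near 0 for all tested exons (0.0046). Sycp1, at a mean count of 376, had the lowest at -0.43 per the authors' deposited table (adjusted p = 0.608). Syce1 and Syce2 followed with -0.36 each per the authors' deposited table. Six6os1 stood at the other end with 0.48 (adjusted p = 0.424) per the authors' deposited table, higher than 99.8% of tested exons. Sycp2 and Sycp3, the members with the lowest folds at P12, had values of -0.08 and -0.13 per the authors' deposited table.

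The introns of ovary gave the only call there. Hormad2 introns, at a mean count of 146, rose by 0.87 per the authors' deposited table (adjusted p = 0.000614), where 0.0929% of 12915 tested introns were called higher and 0.186% lower. Its exons, at a mean count of 19.0, had a fold of 0.10 per the authors' deposited table that did not pass. So the same introns were called lower in the P12 testis and higher in ovary, in tables fitted separately, and the difference between the tissues was not tested. Sycp2 introns were at 0.46 and Six6os1 introns at 0.43 per the authors' deposited table, and neither passed (adjusted p = 0.778 and 0.850).

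Over the 8 members with tested introns in ovary, 7 had intron folds above 0, with a median of 0.15, and 7 had an exon fold below the intron fold. The median of the intron folds depended on the floor: it was 0.44 over the 4 members with intron counts of at least 100, and 0.07 over all 10 with no floor. The median of exon minus intron was -0.37, and 0.709% of 12275 genes lay lower than that, whose own median was near 0 (-0.0025). The difference was -0.76 for Hormad2, -0.54 for Sycp2 and -0.34 for Sycp1. Six6os1 was the exception with 0.05. At P12 the same quantity lay near the middle of all genes, with 39.2% of genes below the members' median. Exon counts of the members were low in ovary, from 19.0 for Hormad2 to 376 for Sycp1. Their tested introns ran from 15.6 for Sycp3, 15.8 for Syce1 and 27.8 for Syce2 to 356 for Six6os1. Folds of features with few counts lie close to 0: in ovary their SD across exons was 0.0352 at mean counts below 10 and 0.112 at 1000 or more. How far unequal counts of exons and introns set the difference was not tested. Exons of all 6 tested oocyte markers had folds below 0 in ovary, with a median of -1.04, and 4 were called lower. The median exon fold of 5 general germ cell markers was -0.34, with 2, Tdrd1 and Mael, called lower. Member exons had a median of -0.16 and 0 were called lower, where 0.445% of all tested exons were. The part of both marker lists in the member values was not tested.

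The m6A libraries ask how much of each transcript is recovered by an antibody to the mark. Polyadenylated RNA of P8 wild-type testis was fragmented and precipitated, and a log2 fold below 0 means a smaller share of fragments in the precipitate than in the input, relative to the scaling of the whole table. All 10 members were lower in the precipitate, and 26.3% of 15807 tested exons were called lower and 26.9% higher. Among the 9712 exons with mean counts between those of the lowest and highest member, 34.9% were called lower. The members had a median fold of -1.05 against -0.02 for all tested exons. There was 1 library on each side, so no replicate checks these values, and their adjusted p rests on no spread between P8 replicates.

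Hormad1 stood lowest, with 23.2% of the input level (log2 fold -2.10, adjusted p = 3.98e-12 per the authors' deposited table), and 0.911% of tested exons lay lower. Six6os1 at -1.69 and Sycp2 at -1.46 came next per the authors' deposited table (adjusted p = 6.67e-10 and 8.31e-08). Between -1.10 and -0.94 lay Sycp3, Sycp1, Syce2, Tex12, Hormad2 and Syce3 per the authors' deposited table. The last 2 of these had an adjusted p of 0.0176 and 0.0226. Syce1 was nearest to 0 at -0.52 per the authors' deposited table (adjusted p = 0.0143), and 35.3% of tested exons lay lower. At an adjusted p under 0.01, 7 members were still lower (21.4% of all tested exons were).

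In m6A introns, 2 of 9 tested members were called lower, where 3.11% of 9410 tested introns were called lower and 5.76% higher. At an adjusted p under 0.01, 1 member was lower (1.11% of all tested introns), and under 0.1, 3 were lower (5.56%) and 1, Hormad2, was higher (6.97%). Hormad1 introns were at -1.61 and Sycp2 introns at -1.33 per the authors' deposited table (adjusted p = 0.0159 and 0.00583). Hormad2 introns were at 0.76 per the authors' deposited table and did not pass (adjusted p = 0.0648). A fold over a whole gene does not locate sites and does not show that a transcript lacks the mark.

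**Figure D5:**
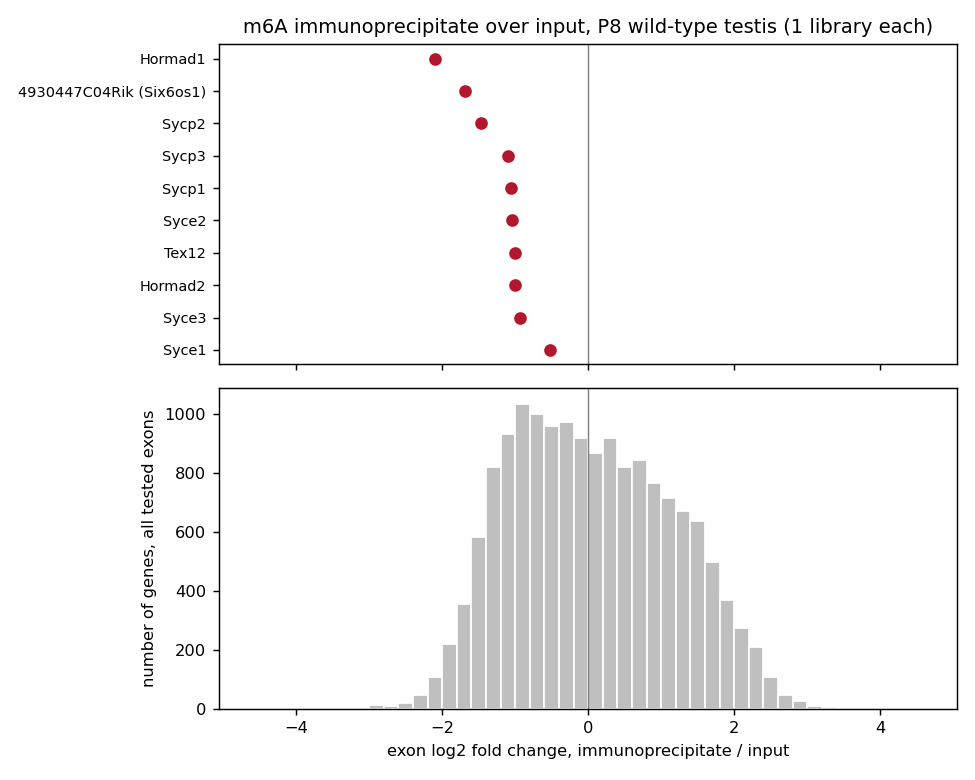
Exon log2 fold change of m6A immunoprecipitate over input in P8 wild-type testis, with the 10 members as points above and the number of genes per bin for all tested exons below. The members lie between -2.10 for Hormad1 and -0.52 for Syce1, all below 0, while the whole table is centred near 0.

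Germ cell markers shared the low m6A values of the members. Of the 5 general germ cell markers all 5 had exon folds below 0, with a median of -1.86 against -0.02 for all tested exons. Ddx4 and Dazl, RNA-binding proteins of germ cells, stood at -2.07 and -2.21 per the authors' deposited table. Of the 5 markers of undifferentiated spermatogonia 1 was below 0 and 4 above, with a median of 0.62. Of 7 Sertoli cell markers 5 were below 0 and 2 above, with a median of -0.30. Low m6A values were thus not limited to the synaptonemal complex and axis genes.

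Other genes of the axis, crossing over and telomere tethering, 39 in all and with mitotic cohesin genes among them, were counted beside the members. At P12 34 were tested in exons, of which 13 were lower (0.784% of all tested exons were) and 0 higher (0.0964%), with a median fold of -0.21. The 9 cohesin genes counted, whose products hold sister chromatids together, include subunits of mitotic as well as meiotic cohesin. Of these 9, 2 fell: Rad21l at -1.24 and Stag3 at -0.57 per the authors' deposited table (adjusted p = 3.53e-15 and 0.00111). Ccdc36, also named Iho1, which binds HORMAD1 and promotes breaks on the axis, fell by 0.81 and Mei1 by 0.57 per the authors' deposited table (adjusted p = 2.58e-08 and 0.00782). Of 8 genes of axis remodelling and surveillance, the checkpoint kinase gene Atr at -0.49 and Mdc1 at -0.58 fell per the authors' deposited table (adjusted p = 0.0258 and 0.00461).

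Crossover and telomere genes made up the rest. The crossover genes Msh5 at -1.11, Hfm1 at -0.96, Cntd1 at -0.72 and Msh4 at -0.65 fell per the authors' deposited table (4 of 8 tested, adjusted p = 5.77e-10, 2.17e-07, 0.00159 and 0.00651). The telomere tethering genes Ccdc79 at -1.11, Ccdc155 at -0.94 and Spdya at -0.83 fell per the authors' deposited table (3 of 5 tested, adjusted p = 1.00e-10, 5.23e-07 and 4.52e-05). In ovary 1 of 33 was lower, the cohesin gene Smc1b at -0.91 per the authors' deposited table (adjusted p = 1.53e-07), and 0 were higher. At P8 0 of 34 were called against either control. In the m6A libraries 25 of 34 had folds below 0 and 9 above, where 50.5% of all tested exons lay below 0. The median of the 34 was -0.78 against -0.02 for all tested exons. All 9 meiotic and mitotic cohesin genes were below 0, and Ccdc36 and H2afx stood at 2.06 and 2.56 per the authors' deposited table.

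At P12 the general germ cell markers did not fall with the members. Of 5 tested 0 were called, with a median of -0.02, and Ddx4 stood at -0.12 and Dazl at 0.03 per the authors' deposited table. Of 5 markers of undifferentiated spermatogonia 0 were called, with a median of -0.08, and of 7 Sertoli cell markers 0, with a median of -0.08. Of 5 tested Leydig cell markers 1, Cyp17a1, was called higher, with a median of 0.18. In introns the same list leaned the other way, with 4 of 5 below 0, a median of -0.19 and 1, Lhcgr, called lower. Of 7 spermatid markers 2 had a mean count of at least 10 at P12, and neither was called. The part of these differences in the member values was not tested.

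The genes most like the members were sought by distance. Among 9687 genes with mean exon counts of at least 100 in the 3 total RNA tables, those nearest to the members' median folds (-0.06 at P8 against the wild type, -0.54 at P12 and -0.16 in ovary) were Atr, Ero1lb, Agbl3, Hist1h4i and Stag3. Their distances, over 3 comparisons, were 0.060, 0.060, 0.065, 0.097 and 0.129 on the log2 scale. Atr and Stag3 are in the list of axis genes above.

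Between ages and tissues the level of a member can be given only as its share of all sense exon counts of a table, over knockout and control libraries together, in tables that were normalized separately. Every member took a larger share at P12 than at P8, from 1.66 times for Syce2 to 3.25 times for Sycp3. Sycp3 went from 20.1 to 65.4 counts in 1000000 and Hormad1 from 11.9 to 37.6, while Sycp1 went from 114 to 201. In ovary 9 of 10 shares were below those of the P8 testis, from 0.262 times for Syce1 to 0.915 times for Six6os1, and Sycp3 was about level at 1.01 times. These ratios carry no test.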

How the data were processed

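Total RNA was sequenced after ribosomal RNA removal with strand kept, and m6A libraries from fragmented polyadenylated RNA with a small RNA kit, per the labels' protocols. The authors deposited comparisons and no values per library. Per the file headers, each table gives a mean normalized count per feature (a signal over all its libraries), log2 fold changes, and adjusted p-values. The submitters' processing notes name mm10 and DESeq2, and cutadapt for ovary; which aligner, counter or gene annotation was used is not stated. Column names of both testis tables also say IPvsInput, per the file headers, and were read as knockout over control. Folds of features with few counts lie close to 0: at P12 their SD across exons was 0.0418 at mean counts below 10 and 0.139 at 1000 or more, so sizes are not strictly comparable between tables. The summed mean counts were 42229589 (P8 testis), 37066681 (P12 testis) and 23754190 (ovary). Depth per library is unknown.

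The planned models of counts could not be fitted, so the authors' adjusted p was used, with 0.05 as threshold and a floor of 10 on the mean count. Nothing says whether libraries of a group came from separate animals, so the spread behind the p-values may be technical. The m6A columns of each age were ordered by adjusted p within all 8 feature types. At P12 2911 and at P20 2823 features with counts lacked a fold, against 0 at P8. Exon and intron folds were weakly correlated in rank at P8 (Spearman's rho 0.21 across 12583 genes, which are not independent replicates). At the other ages rho was near 0 (0.0045 and -0.0064), so only P8 was matched to names. The members, gene lists and motifs were chosen with earlier results of these data known. All members are named, with Ythdc2, listed axis genes called at P12 or P0, and the 5 genes nearest to the members' medians. Marker genes (Ddx4, Dazl, Tdrd1, Mael, Cyp17a1 and Lhcgr) and H2afx fall outside this rule and were chosen after their values were seen. Names matched RefSeq GRCm38.p6. The Bind-N-Seq file was not used here, and 8 of its columns, 1 per library, could not be tied to a label. Counting functions and the motif search were tested on simulated data. Python 3.11.15, pandas 2.3.3, numpy 2.4.6 and matplotlib 3.10.9 were used.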

Additional observations from a re-analysis of the deposited data

Results flagged for a closer look

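Reads antisense to the members enter no comparison above. For 5 of the 10 members, Sycp1, Syce2, Sycp2, Sycp3 and Hormad2, the mean antisense count exceeded in some table the limit of 3 counts that a count of 0 allows, and for the other 5 it stayed below 3 in every total RNA table. Antisense to Sycp3 introns the mean normalized count was 117.9 at P8, 111 at P12 and 104 in ovary, and antisense to its exons it reached 40.9 in ovary. The 3′ part of Sycp3 (chr10:88459587-88473236, GRCm38.p6, plus strand) overlaps Chpt1 on the minus strand by 3724 bases. In ovary the antisense count was 665% of the sense count in Sycp3 introns and 25.3% in its exons. Antisense to Sycp1 exons it reached 45.9 at P8, against 2149 in sense. Antisense to Syce2 it reached 10.1 in introns at P8 and 6.06 in exons at P12, and Syce2 overlaps Gcdh on the minus strand by 1060 bases. Antisense to introns it reached 5.64 for Sycp2 in ovary and 3.17 for Hormad2 at P8. None of these antisense features had an adjusted p under 0.05, and the intron features of Sycp2 in ovary had none. The source of these reads was not tested.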

How the results depend on the processing

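At an adjusted p under 0.01 the members called lower at P12 were 2 in exons and 2 in introns, against 7 and 4, and at 0.1 they were 9 and 5. The m6A call of all 10 exons became 7 at 0.01. In ovary the call of Hormad2 introns held at every threshold and floor tried. Centring folds on the median of all features changed no count. At P8 the sign of small values turned with the control: Sycp3 exons became -0.063 with the heterozygous library, Sycp1 introns -0.052 and Syce3 introns -0.012, and centring took Syce3 introns to -0.0029. The P8 median of exon minus intron was -0.03, and 0.0060 with introns of at least 100 counts. Of the alternatives run for counts and medians, 3 moved the result. The other 97, the P12 counts at 0.1 among them, left counts within 1.5 times and medians within the spread between members. That is a wide bound for the ovary introns, whose median of 0.15 was 0.44 with a floor of 100 and 0.07 with none. For the remaining results, 207 alternatives gave the same reading, 10 a weaker, 3 a stronger and 4 a reversed one. Leaving out replicates was not run. No paired analysis was possible because the tables hold no values per library.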

Other observations

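The balance of intron to exon counts differed widely among the members and also between sets of libraries. Hormad2, which spans 95398 bases, had intron counts of 6.47 times its exon counts at P8, 3.98 times at P12 and 7.68 times in ovary, and Six6os1, which spans 37765 bases, 2.61, 1.99 and 2.20 times. Syce3 lay at the other end with 0.11, 0.05 and 0.06 times. In the m6A table, made from polyadenylated RNA, the ratio was below that of P12 total RNA in 10 of 10 members, with 2.07 for Hormad2. For Syce3 the m6A and P12 ratios were nearly equal, at 0.050 and 0.054. The m6A libraries also differ from the P12 total RNA libraries in ages, genotypes and preparation, and these cannot be told apart. It was lower at P12 than at P8 in 8 of 10 members, and higher in ovary than at P12 in 8 of 10. Mean counts of the total RNA tables cover knockout and control libraries together, those of the m6A table cover YTHDC2 +/+ and +/- libraries of all its ages, and the ratios carry no test.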
